A study of Mus musculus with 15 samples.

Results

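The genes described here lie around Ager, which encodes RAGE, in the class III region of the major histocompatibility complex on mouse chromosome 17. A list of 40 protein-coding genes, from Notch4 on one side to Ddx39b on the other, was chosen for its place in the region. Earlier results of these data were known when it was chosen. The list leaves out other genes of the stretch, among them Hspa1a and Hspa1b, which are described below. Of the 40 listed genes, 39 had at least 1 probe set annotated to that gene alone, out of 18193 genes measured on the arrays. Csnk2b, the regulatory subunit of casein kinase 2, had none and was not analysed here. The 39 genes were read by 59 probe sets, 1 each for 26 genes and several for 13, and where there were several, the one with the highest overall mean was taken. In the reference gene order (GRCm38.p6), Notch4 lies 3 genes before Ager and Ddx39b 53 genes after it, and the stretch holds 57 protein-coding genes, both ends and Ager included. Rnf5 is the next gene after Ager, followed by Agpat1.

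The class III region sits between the class II and class I genes and is among the most gene-dense stretches of the genome. It holds few antigen-presenting genes. Its members include cytokines of the tumour necrosis factor family, genes expressed in leukocytes, and many housekeeping genes for RNA handling, protein folding, lysosomes and lipids. A gene deleted by targeting keeps its neighbours on the same chromosome, so the genes beside Ager are inherited together with the deleted allele.

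RNA from whole aorta, root to bifurcation, was measured on Affymetrix arrays in 15 male mice, 1 mouse per array, all labelled C57BL/6 and 9 weeks old. All of the mice lacked Apoe, a ligand for the clearance of lipoproteins, and no mouse with intact Apoe was included. Groups were non-diabetic Apoe null (replicates 5 to 8, n = 4), diabetic Apoe null (replicates 1 to 4, n = 4), non-diabetic Apoe/RAGE null (replicates 13 to 15, n = 3) and diabetic Apoe/RAGE null (replicates 9 to 12, n = 4). Diabetes was induced at 6 weeks with 5 daily injections of streptozotocin, a toxin of pancreatic beta cells, at 65 mg/kg, and the other mice received citrate buffer. The 2 genotypes came from different sources, the Apoe null mice being bought and the Apoe/RAGE null mice bred in a laboratory colony, so the deletion and the colony cannot be told apart. Values are log2 probe set levels, and a difference of 1 is a doubling on that scale.

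The mean level of 6 smooth muscle markers, which mark the vessel wall, was 11.13 to 11.88 on each array. One Ager probe set lay between 3.08 and 3.66 on all 15 arrays, and the other was not lower in Apoe/RAGE null aorta (4.89 to 5.09 without and 4.48 to 5.36 with diabetes) than in Apoe null aorta (4.45 to 4.69 and 4.17 to 4.62). On the latter probe set, diabetic Apoe/RAGE null replicates 9 and 10 read 4.63 and 4.48, inside the span of Apoe null aorta. Replicates 11 and 12 read 5.36 and 4.95, above it, as did the non-diabetic Apoe/RAGE null arrays. The sources used here do not say which exons were deleted or whether these probe sets fall in them. Loss of Ager therefore could not be checked, and the genotypes rest on the labels. Diabetic Apoe/RAGE null replicates 9 and 10 had been set apart in earlier results of these data, because genes near Ager, Rnf5 among them, read there at the Apoe null level or below it. Rnf5 was below every Apoe null array in both. Replicate 10 also had the lowest median correlation with the other arrays (0.974, against 0.985 to 0.992). For the members described singly, differences that use the diabetic Apoe/RAGE null group are therefore given as labelled and then without replicates 9 and 10, or without replicate 10 where that array decides them. Genes near Ager set that pair apart. For members close to Ager, such as Rnf5, Agpat1, Egfl8 and Notch4, values without the pair therefore describe those arrays and support no call. The comparisons with diabetic Apoe null aorta and with non-diabetic Apoe/RAGE null aorta share the diabetic Apoe/RAGE null arrays.

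As labelled, limma called 0 of the 39 genes at an adjusted p under 0.05 in each of the 6 comparisons fitted. Of all genes, 0% were called for RAGE deletion without diabetes, 0.313% for RAGE deletion with diabetes, 0% for genotype over both states, 0% for diabetes in Apoe null aorta, 0% for diabetes in Apoe/RAGE null aorta and 0% for the interaction. By the submitters' threshold of B above 0 the count of members was also 0 in each. At an unadjusted p under 0.05 the member counts were 1 for RAGE deletion without diabetes (2.62% of all genes), 3 with diabetes (17.9%) and 3 over both states (10.7%). They were 3 for diabetes in Apoe null aorta (13.2%), 3 for diabetes in Apoe/RAGE null aorta (7.71%) and 1 for the interaction (8.57%). The share of members was near that of all genes or below it in each comparison. Without replicates 9 and 10 limma called 0 members for RAGE deletion with diabetes (0.0385% of all genes), and 4 had an unadjusted p under 0.05 (21%). The unadjusted counts were then 4 over both states (15.7%), 0 for diabetes in Apoe/RAGE null aorta (4.24%) and 1 for the interaction (11%).

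Most members moved little in either direction. Without diabetes, 15 of 39 were higher in Apoe/RAGE null aorta (50.6% of all genes) and the median difference was -0.01. With diabetes, 24 were higher (49.4% of all genes) and the median was 0.03; leaving out replicates 9 and 10 gave 18 (48.9%) and -0.01. The difference lay within 0.2 of zero for 34 members without diabetes (87.6% of all genes) and for 30 with diabetes (68.3%). The 95% interval of the difference lay wholly within 0.5 of zero for 28 of 39 without diabetes (78.4% of all genes), for 27 with diabetes (69.9%) and for 32 over both states (86.3%). Which members had an interval that reached beyond 0.5 differed by comparison. Rnf5, Atp6v1g2, Hspa1l and Notch4 were among those for which it did so in each of these comparisons.

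Over the 15 arrays the range of a member's level ran from 0.26 for Abhd16a, a phosphatidylserine lipase, to 3.65 for Ltb, the lymphotoxin beta gene. Ltb, Aif1 (range 3.25), Hspa1l (2.22), Gpsm3 (1.62), Lst1 (1.48), Atp6v1g2 (1.41), Notch4 (1.22) and Rnf5 (1.19) spread by more than 1.15, which was the range of Lta. Replicate 10 was the highest array for 10 of the 39 members (12.3% of all genes peaked there) and the lowest for 6 (12.4%). The mean level of 10 members lay below the median of all probe set means, 4.37.

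**Figure D1:**
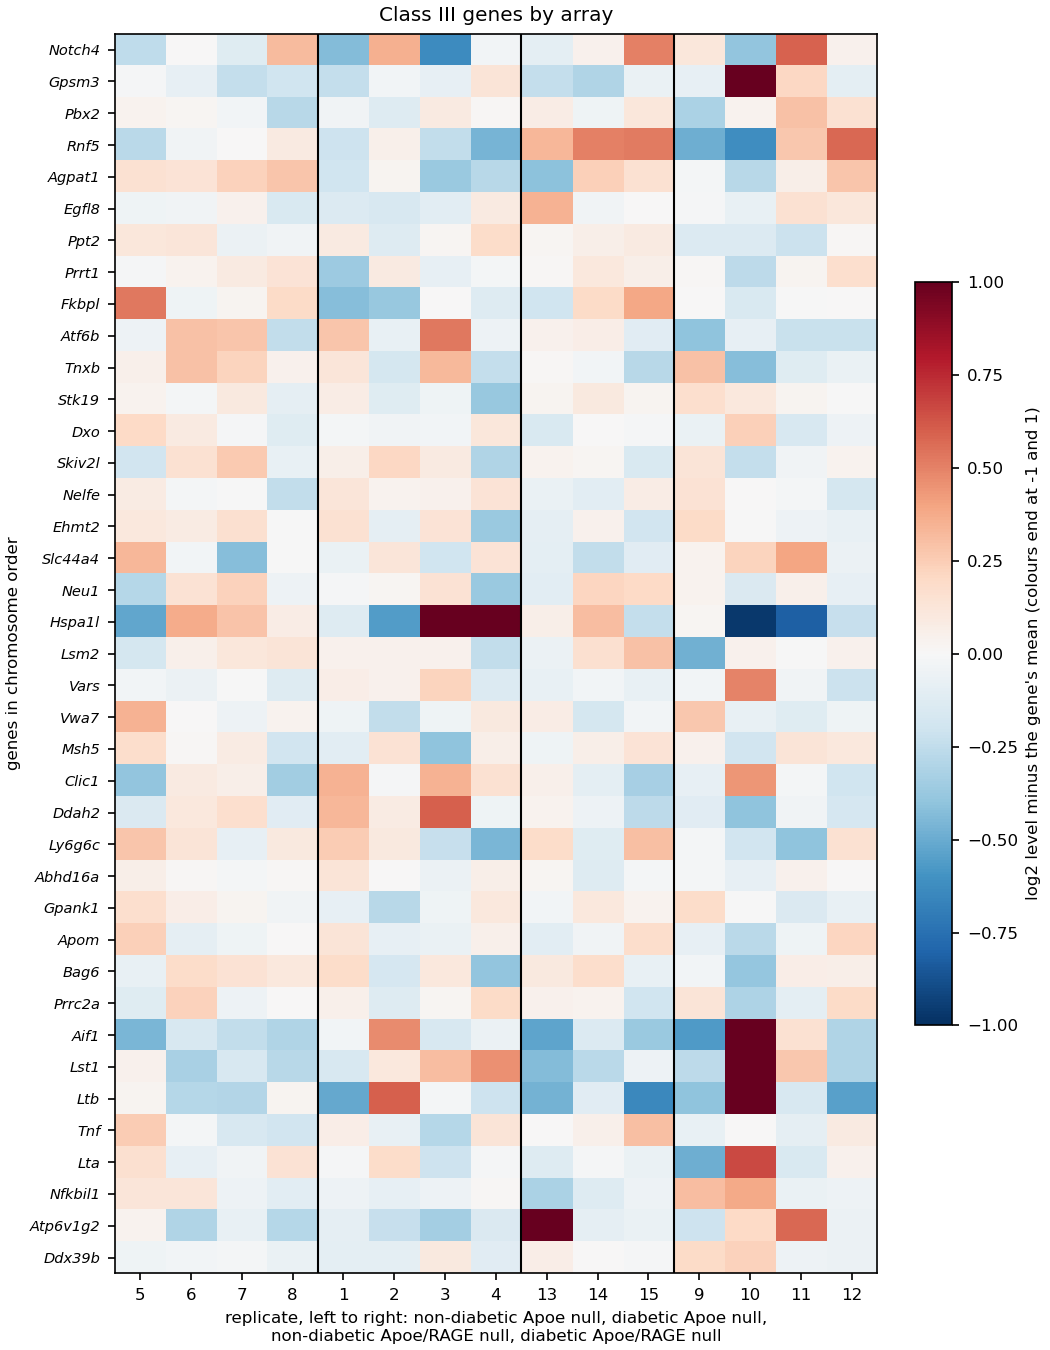
Log2 level of each of the 39 measured class III genes (rows, in chromosome order) on each of the 15 arrays (columns, by group and replicate), minus the gene's mean over the arrays, with colours ending at -1 and 1. Dark cells gather in replicate 10 for Gpsm3, Aif1, Lst1 and Ltb, in diabetic Apoe null replicates 3 and 4 for Hspa1l, and in replicate 13 for Atp6v1g2.

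Rnf5, a membrane-bound ubiquitin ligase of the endoplasmic reticulum, was the member that separated the non-diabetic genotypes most widely. It read 7.06, 7.29, 7.33 and 7.42 in non-diabetic Apoe null replicates 5 to 8, and 7.66, 7.83 and 7.85 in non-diabetic Apoe/RAGE null replicates 13 to 15. The lowest Apoe/RAGE null array was above the highest Apoe null array. The difference was 0.51 ± 0.23 (SE; 95% interval 0.01 to 1.0), with an unadjusted limma p of 0.0443 and an adjusted p of 1.

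In diabetic aorta the labelled groups overlapped. Rnf5 was 7.12, 7.38, 7.08 and 6.86 in Apoe null replicates 1 to 4. It was 6.84, 6.71, 7.60 and 7.90 in Apoe/RAGE null replicates 9 to 12, so replicates 9 and 10 were below every Apoe null array and replicates 11 and 12 above all of them. The labelled difference was 0.16 ± 0.21 (limma adjusted p = 0.796), and over both states it was 0.33 ± 0.16 (adjusted p = 0.554). The 5 other Apoe/RAGE null arrays spanned 7.60 to 7.90 and the 8 Apoe null arrays 6.86 to 7.42. Without replicates 9 and 10 the difference over both states was 0.57 ± 0.10, with a limma adjusted p of 0.0461 (0.0461 to 0.823 over all alternatives). That was 1 of 39 members called, against 0.115% of all genes. Because Rnf5 itself was among the genes that set those arrays apart, this value describes them and supports no call. With diabetes alone and without the pair it was 0.64 ± 0.14 (adjusted p = 0.105).

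**Figure D2:**
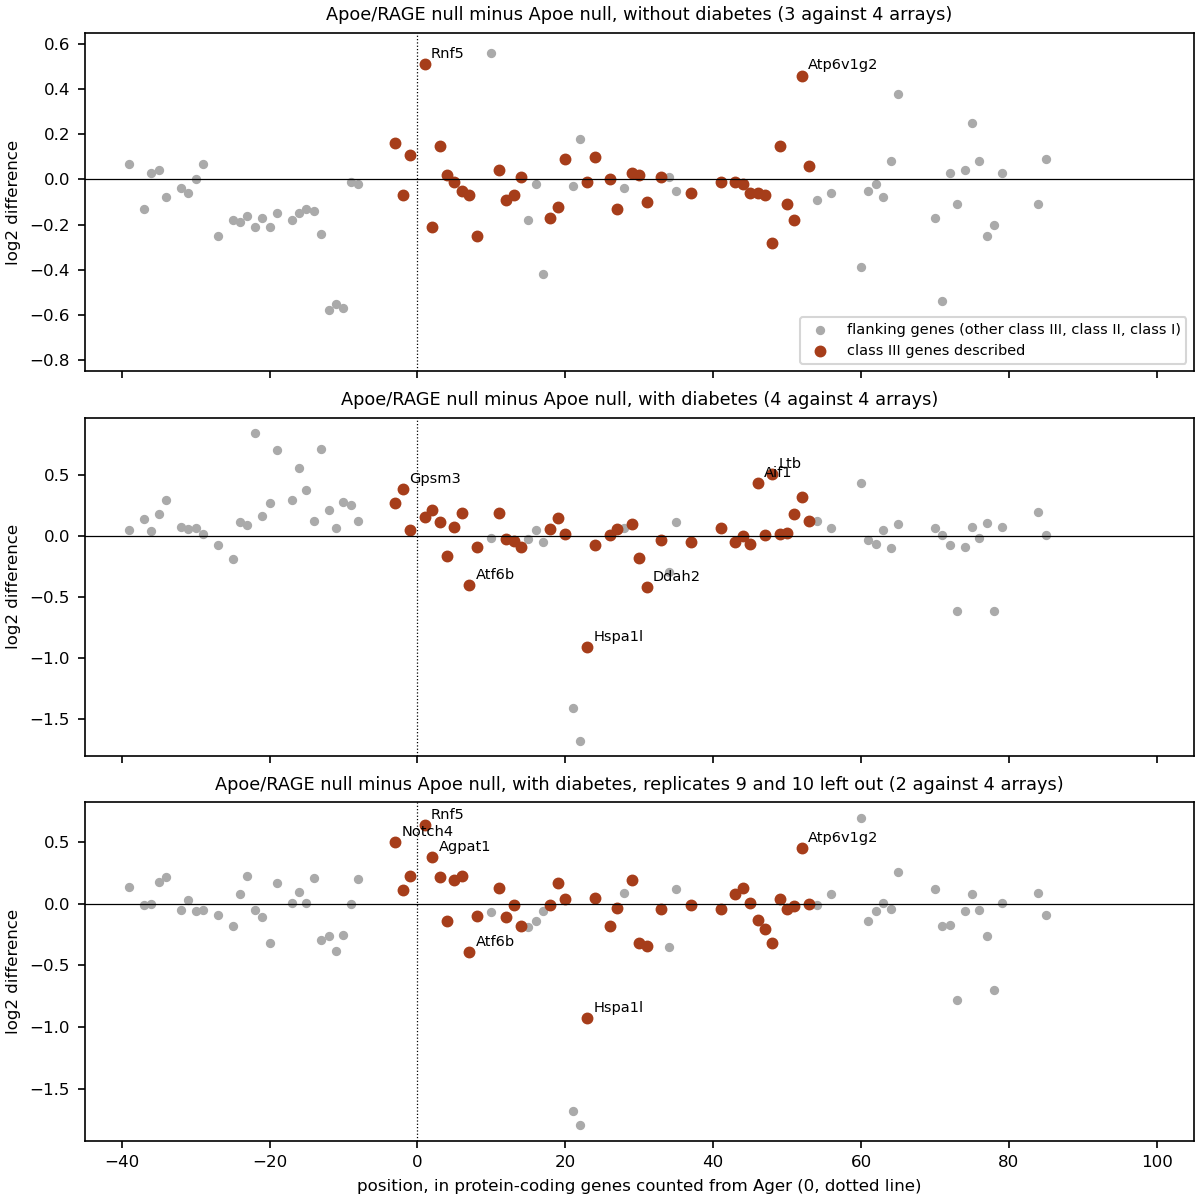
Difference in log2 level between Apoe/RAGE null and Apoe null aorta (vertical axis) against position counted in protein-coding genes from Ager (horizontal axis), for the class III members (large points) and the flanking genes (small points), without diabetes, with diabetes, and with diabetes without replicates 9 and 10. Rnf5 (0.51, 0.16 and 0.64) stands beside Ager, and Hspa1l (-0.91 with diabetes) lies next to the lowest flanking points, Hspa1a and Hspa1b. Flanking genes farther than 45 genes before Ager are not drawn.

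Non-overlap of groups was also counted for the other members. Without diabetes, 3 of 39 members had groups that did not overlap, against 4.87% of all genes: Rnf5 and Ddx39b were higher in Apoe/RAGE null aorta and Tnxb was lower. With diabetes only Atf6b did so as labelled (1 of 39, against 7.73%), and over all 15 arrays no member did (0 of 39, against 0.0275%). Without replicates 9 and 10 the count with diabetes was 9 of 39, against 28% of all genes, where 2 arrays face 4. Over both states it was 1, Rnf5, against 0.407%. Rnf5 was in both counts and among the genes that set those arrays apart, so its non-overlap describes them and supports no call.

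Among the other genes of protein folding and quality control, Atf6b, an endoplasmic reticulum stress sensor related to Atf6, had a lower mean in diabetic Apoe/RAGE null aorta, without passing the test. It read 6.14, 5.79, 6.39 and 5.81 in diabetic Apoe null replicates 1 to 4 and 5.46, 5.78, 5.64 and 5.64 in Apoe/RAGE null replicates 9 to 12. Replicate 10 lay just under the lowest Apoe null array and the other 3 clearly below. The difference was -0.40 ± 0.15 (limma adjusted p = 0.211), and -0.39 ± 0.18 without replicates 9 and 10 (adjusted p = 0.304). Without diabetes the genotypes overlapped, at 5.62 to 6.16 in Apoe null and 5.75 to 5.93 in Apoe/RAGE null aorta, and the difference was -0.07 ± 0.16 (95% interval -0.40 to 0.27).

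Hspa1l, a member of the heat shock protein 70 family that lies beside its inducible relatives Hspa1a and Hspa1b, had the largest difference of any member in diabetic aorta. Diabetic Apoe null replicates 1 to 4 read 4.75, 4.32, 6.13 and 5.96, and diabetic Apoe/RAGE null replicates 9 to 12 read 4.90, 3.91, 4.06 and 4.65. Replicates 3 and 4 were the highest of all 15 arrays, while replicates 1 and 2 lay inside the range of the Apoe/RAGE null group. The difference was -0.91 ± 0.36 (limma adjusted p = 0.252), between -1.23 and -0.63 when any 1 array was left out, and -0.93 ± 0.43 without replicates 9 and 10 (adjusted p = 0.308). Non-diabetic levels were 4.36 to 5.25 in Apoe null and 4.64 to 5.19 in Apoe/RAGE null aorta, a difference of -0.01 ± 0.39.

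Both neighbours passed the test in the same comparison, though the calls depended on single arrays. Hspa1b differed by -1.41 ± 0.24 (limma adjusted p = 0.0432). It read 11.57, 10.63, 11.51 and 11.62 in diabetic Apoe null replicates 1 to 4 and 10.65, 9.71, 9.71 and 9.60 in Apoe/RAGE null replicates 9 to 12. Hspa1a differed by -1.68 ± 0.32 (adjusted p = 0.0469), with 10.03, 8.97, 10.27 and 9.95 against 8.89, 7.60, 7.80 and 8.21. Apoe null replicates 1, 3 and 4 were the highest arrays for both genes, and replicate 1 was not high for Hspa1l. Without replicates 9 and 10 the differences were -1.68 for Hspa1b, which was called, and -1.80 for Hspa1a, which was not (limma adjusted p = 0.0235 and 0.0765). With only the diabetic groups fitted, both had an adjusted p of 0.113. With 1 array left out, Hspa1b was still called without replicate 2, 5, 7, 8 or 9 and lost without any of the other 10, and Hspa1a was called without replicate 2, 5 or 9 and lost without any of the other 12. Over all alternatives the adjusted p ran from 0.00974 to 0.162 for Hspa1b and from 0.0182 to 0.183 for Hspa1a, and with 1 array left out the differences stayed between -1.66 and -1.31 and between -1.96 and -1.50. These near-identical paralogs can share probes. Non-diabetic levels of Hspa1b were 9.82 to 10.19 in Apoe null and 9.73 to 10.22 in Apoe/RAGE null aorta. Those of Hspa1a were 7.76 to 8.85 and 8.35 to 8.88. The genotype differences without diabetes were -0.03 ± 0.26 for Hspa1b and 0.18 ± 0.34 for Hspa1a. Diabetes in Apoe null aorta gave 1.27 ± 0.24 and 1.32 ± 0.32 (limma adjusted p = 0.222 and 0.288). In Apoe/RAGE null aorta it gave -0.12 ± 0.26 and -0.53 ± 0.34.

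Fkbpl, an immunophilin-like co-chaperone of Hsp90, had a lower mean with diabetes in Apoe null aorta, without passing the test. Non-diabetic replicates 5 to 8 read 5.34, 4.77, 4.84 and 5.01 and diabetic replicates 1 to 4 read 4.39, 4.44, 4.82 and 4.69. The groups overlapped through diabetic replicate 3. The difference was -0.40 ± 0.14 (limma adjusted p = 0.371), against -0.17 ± 0.15 in Apoe/RAGE null aorta (adjusted p = 0.822; -0.13 ± 0.19 without replicates 9 and 10). Bag6, a chaperone for tail-anchored and misfolded proteins, ranged from 7.01 to 7.59, and Vars, the valyl-tRNA synthetase, from 6.27 to 6.98 with its highest value in replicate 10. Of the 6 genes of this role, 1 was higher and 5 lower in non-diabetic Apoe/RAGE null aorta, and 3 and 3 with diabetes.

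**Figure D3:**
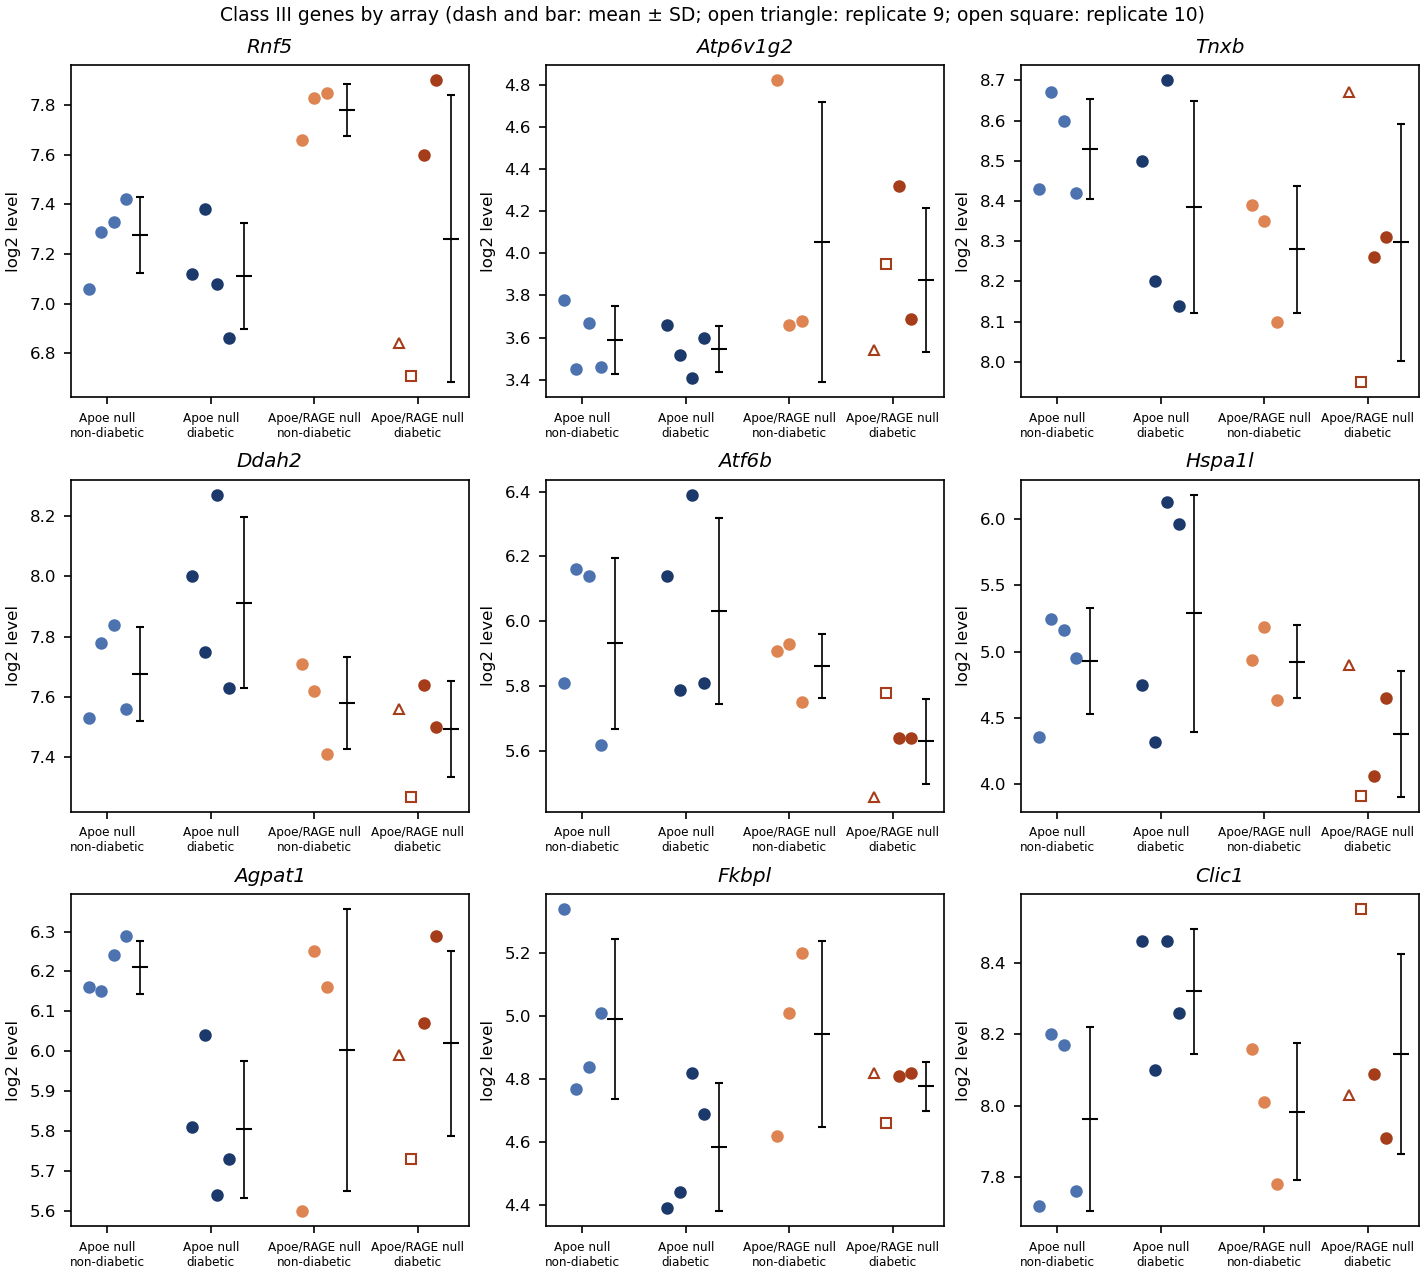
Log2 level of 9 class III genes on each array (points), by group, with the group mean and SD as a dash and bar; open triangles and squares mark diabetic Apoe/RAGE null replicates 9 and 10. Rnf5 in those 2 arrays (6.84 and 6.71) lies below replicates 11 and 12 (7.60 and 7.90), and the vertical axes start above zero.

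Agpat1, an acyltransferase that makes phosphatidic acid for triglyceride and phospholipid synthesis, gave the smallest p of any member for diabetes in Apoe null aorta. It was 6.16, 6.15, 6.24 and 6.29 in non-diabetic replicates 5 to 8 and 5.81, 6.04, 5.64 and 5.73 in diabetic replicates 1 to 4. Every diabetic array was below every non-diabetic one. The difference was -0.41 ± 0.14 (limma adjusted p = 0.370), and the other Agpat1 probe set gave -0.57 ± 0.16 (adjusted p = 0.324). White adipocyte markers (5 of 6 measured) moved with it, with a mean over the list of 9.35 to 9.68 in non-diabetic and 8.64 to 9.31 in diabetic Apoe null aorta. Brown adipocyte markers (5 measured) did too, at 10.26 to 10.97 and 9.04 to 10.42, but these ranges overlapped through diabetic replicate 2. Of that list Dio2 went the other way, at 0.27 ± 0.24, and the rest were lower with diabetes. The part of either list in the result was not tested. In such bulk tissue fewer cells of a type and less RNA per cell cannot be told apart. In Apoe/RAGE null aorta the groups overlapped, at 5.60 to 6.25 without and 5.73 to 6.29 with diabetes, and the difference was 0.02 ± 0.16. The interaction was 0.42 ± 0.21 (adjusted p = 0.707). Leaving out replicates 9 and 10, these were 0.18 ± 0.17 and 0.58 ± 0.22 (adjusted p = 0.999 and 0.575). Because genes near Ager set that pair apart, these values support no call.

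Agpat1 was 1 of 2 members whose groups did not overlap for diabetes in Apoe null aorta, against 7.62% of all genes, and Aif1 was the other. For diabetes in Apoe/RAGE null aorta there were also 2 (against 6.68%), Slc44a4, a choline-like transporter, above and Ppt2, a lysosomal thioesterase, below. Slc44a4 was 3.64, 3.49 and 3.62 in replicates 13 to 15 and 3.77, 3.96, 4.13 and 3.68 in replicates 9 to 12, a difference of 0.30 ± 0.15 (limma adjusted p = 0.698), and 0.32 ± 0.19 without replicates 9 and 10. Replicate 12, at 3.68, lay close to replicate 13. Without replicates 9 and 10 the count was 6 of 39, against 19.5%, where 2 arrays face 3. Ppt2 was 8.21, 8.25 and 8.28 against 8.05, 8.05, 7.97 and 8.20, a difference of -0.18 ± 0.09 (adjusted p = 0.694), and -0.16 ± 0.11 without the pair. Skeletal muscle markers (6 of 6 measured) also moved between these groups, with a list mean of 3.90 to 5.13 without and 7.78 to 9.53 with diabetes. The score, the mean over a list of log2 level minus each gene's mean, also separated these groups for airway and lung markers (4 of 4 measured; -0.87 to -0.62 without and -0.16 to 1.28 with diabetes) and for neutrophil markers (5 of 6; -0.72 to -0.51 and 0.04 to 1.11). The airway and lung split rested on Scgb1a1, which differed by 4.99, while Sftpa1, Sftpb and Sftpc differed by 0.19, -0.04 and -0.05. In the neutrophil list S100a8 and S100a9 differed by 2.63 and 2.32, and Ngp, Mmp8 and Camp by only 0.44, 0.21 and 0.14. Replicate 11 had both the highest airway and lung score and the highest Slc44a4 level of the group. The part of these 3 lists in either result was not tested.

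Ddah2, of the family of enzymes that break down methylated arginines, had the smallest p of any member for RAGE deletion with diabetes. Diabetic Apoe null replicates 1 to 4 read 8.00, 7.75, 8.27 and 7.63, and diabetic Apoe/RAGE null replicates 9 to 12 read 7.56, 7.27, 7.64 and 7.50. Replicate 4 of the first group and replicate 11 of the second were nearly level, so the groups overlapped. The difference was -0.42 ± 0.13 (unadjusted p = 0.00697, limma adjusted p = 0.164) and between -0.52 and -0.30 when any 1 array was left out. Without diabetes it was -0.10 ± 0.15, with 7.53 to 7.84 in Apoe null and 7.41 to 7.71 in Apoe/RAGE null aorta. Diabetes in Apoe null aorta gave 0.24 ± 0.13 (adjusted p = 0.553). Leaving out replicates 9 and 10, the diabetic genotype difference was -0.34 ± 0.16 (adjusted p = 0.316). Smooth muscle markers also had lower group means in diabetic Apoe/RAGE null aorta, as Ddah2 and Atf6b did, 6 of 6 being lower and 0 called. Their score was 0.28, -0.14, 0.32 and -0.02 in diabetic Apoe null replicates 1 to 4 and -0.01, -0.24, -0.43 and -0.03 in Apoe/RAGE null replicates 9 to 12; Cnn1, the calponin of smooth muscle, differed by -0.51 ± 0.19 (adjusted p = 0.234) and Smtn, smoothelin, by -0.55 ± 0.22 (adjusted p = 0.256). In diabetic Apoe null aorta replicates 1 and 3 were the highest for the score and for both genes. Within the Apoe/RAGE null group the arrays did not follow the score. Replicate 11 had the lowest score but the highest Ddah2 level, and replicate 9 the highest score but the lowest Atf6b level. The part of these markers in the Ddah2 and Atf6b values was not tested.

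Clic1, a chloride intracellular channel protein, had a higher mean with diabetes in Apoe null aorta, without passing the test. Its levels were 7.72, 8.20, 8.17 and 7.76 in non-diabetic replicates 5 to 8 and 8.46, 8.10, 8.46 and 8.26 in diabetic replicates 1 to 4. Diabetic replicate 2 lay below non-diabetic replicates 6 and 7. The difference was 0.36 ± 0.15 (limma adjusted p = 0.440). In Apoe/RAGE null aorta it was 0.16 ± 0.17, where replicate 10 was the highest array of all at 8.55, and 0.02 ± 0.15 without that array.

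Atp6v1g2, the neuronal form of a subunit of the vacuolar proton pump, owed its difference to few arrays. Apoe null replicates 5 to 8 read 3.78, 3.45, 3.67 and 3.46, and Apoe/RAGE null replicates 13 to 15 read 4.82, 3.66 and 3.68. Among diabetic arrays, Apoe null replicates 1 to 4 read 3.66, 3.52, 3.41 and 3.60 and Apoe/RAGE null replicates 9 to 12 read 3.54, 3.95, 4.32 and 3.69. Replicates 13 and 11 were the highest, and the remaining Apoe/RAGE null arrays other than replicate 10 lay within the range of Apoe null aorta. The difference was 0.46 ± 0.24 without diabetes (limma adjusted p = 1), 0.08 with replicate 13 left out, and 0.39 ± 0.16 over both states (adjusted p = 0.49; 0.46 ± 0.18 without replicates 9 and 10). The score of nerve and Schwann cell markers (3 of 5 measured) was also highest in replicates 11 and 13. It was 1.47 and 1.43 there, 0.65 in replicate 10 and -0.66 to 0.10 elsewhere. Prph, an intermediate filament of peripheral neurons, read 7.54 in replicate 13, 6.91 in replicate 11 and 6.02 in replicate 10 and 3.08 to 4.74 on the other arrays. The other markers of the list followed less closely. Mbp was highest in replicate 11 (8.12), and Apoe null replicate 8 (7.75) lay above replicate 13 (7.11). Pmp22 was highest in replicate 13 (10.18), and replicate 11 (9.94) lay below Apoe null replicates 3, 4 and 7 (10.1, 10.01 and 9.98). The part of these markers in the Atp6v1g2 values was not tested.

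Ppt2 differed by -0.16 ± 0.08 between the genotypes with diabetes (limma adjusted p = 0.388; -0.14 ± 0.11 without replicates 9 and 10), at 8.28, 8.06, 8.21 and 8.37 in Apoe null replicates 1 to 4. Those values overlapped with the Apoe/RAGE null group given above through replicates 2 and 12. Neu1, the lysosomal sialidase, ranged from 5.41 to 6.01 over the 15 arrays, and Apom, the carrier of sphingosine 1-phosphate on high-density lipoprotein, from 4.00 to 4.51. Abhd16a stayed between 7.86 and 8.12. Of the 9 genes for lysosomes, lipids, ions and metabolism, 4 were higher and 5 lower in Apoe/RAGE null aorta, both without and with diabetes (5 and 4 with diabetes without replicates 9 and 10), and 0 were called.

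Notch4, an endothelial Notch receptor that lies on the far side of Ager from Rnf5, overlapped between all groups. It read 6.01, 6.27, 6.15 and 6.58 in non-diabetic and 5.83, 6.62, 5.64 and 6.24 in diabetic Apoe null aorta (replicates 5 to 8 and 1 to 4). It read 6.17, 6.31 and 6.77 in non-diabetic and 6.38, 5.87, 6.86 and 6.31 in diabetic Apoe/RAGE null aorta (replicates 13 to 15 and 9 to 12). The highest arrays, replicates 11, 15 and 2, came from 3 groups. The score of endothelial markers (8 of 8 measured) was highest in replicates 11 and 2, at 0.54 and 0.45. It was 0.03 in replicate 15 and lowest, at -0.32, in replicate 14, where Notch4 read 6.31. The part of these markers in the Notch4 values was not tested. The genotype difference was 0.16 ± 0.25 without and 0.27 ± 0.23 with diabetes (limma adjusted p = 1 and 0.628). Leaving out replicates 9 and 10, the difference with diabetes was 0.50 ± 0.26 (adjusted p = 0.362). Because genes near Ager set that pair apart, this value supports no call. As labelled, only 1 of its 3 probe sets was higher in diabetic Apoe/RAGE null aorta, and the others gave -0.01 and -0.06.

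Egfl8, a secreted protein with epidermal growth factor domains, read 4.93, 4.94, 5.02 and 4.82 in non-diabetic Apoe null replicates 5 to 8 and 5.32, 4.94 and 4.98 in Apoe/RAGE null replicates 13 to 15. Only replicate 13 was outside the Apoe null range. The difference was 0.15 ± 0.10 (limma adjusted p = 1), and 0.03 at its smallest when 1 array was left out. With diabetes it was 0.12 ± 0.10, and 0.22 ± 0.12 (adjusted p = 0.384) without replicates 9 and 10. The latter value has the same limit as for Notch4. Prrt1, an auxiliary protein of AMPA-type glutamate receptors, differed by -0.16 ± 0.10 with diabetes in Apoe null aorta (adjusted p = 0.616), at 5.11, 5.16, 5.21 and 5.26 against 4.76, 5.21, 5.04 and 5.10. Only diabetic replicate 1 stood well below the non-diabetic group.

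Tnxb encodes tenascin X, a matrix glycoprotein that organizes collagen fibrils, and had a lower mean in non-diabetic Apoe/RAGE null aorta, without passing the test. Apoe null replicates 5 to 8 read 8.43, 8.67, 8.60 and 8.42, and Apoe/RAGE null replicates 13 to 15 read 8.39, 8.35 and 8.10. The groups did not overlap, though replicates 8 and 13 nearly met. The difference was -0.25 ± 0.16 (95% interval -0.59 to 0.10, limma adjusted p = 1). With diabetes the groups overlapped fully, at 8.14 to 8.70 in Apoe null and 7.95 to 8.67 in Apoe/RAGE null aorta, and the difference was -0.09 ± 0.15 (-0.10 ± 0.15 without replicates 9 and 10). Vwa7, with a von Willebrand factor A domain, ranged from 3.58 to 4.17.

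Of the genes for RNA, chromatin and DNA, 6 of 11 were higher in Apoe/RAGE null aorta without diabetes and 6 of 11 with diabetes (5 without replicates 9 and 10). Their median differences were 0.01 and 0.05, and 0 were called. Ddx39b, an RNA helicase of splicing and nuclear export, was 9.63, 9.64, 9.65 and 9.60 in non-diabetic Apoe null replicates 5 to 8 and 9.74, 9.67 and 9.66 in Apoe/RAGE null replicates 13 to 15. These groups did not overlap, but the difference was 0.06 ± 0.09 (95% interval -0.13 to 0.25), and its 3 other probe sets gave 0.04, -0.01 and 0.05. With diabetes it was 0.13 ± 0.08, with the highest values, 9.86 and 9.90, in replicates 9 and 10, and -0.00 ± 0.08 without them.

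Ehmt2, the histone H3 lysine methyltransferase G9a, differed by -0.17 ± 0.12 without diabetes (limma adjusted p = 1). It read 8.03, 8.00, 8.08 and 7.92 in Apoe null replicates 5 to 8 and 7.83, 7.96 and 7.73 in Apoe/RAGE null replicates 13 to 15. Replicate 14 overlapped the Apoe null group, and the other Ehmt2 probe set gave -0.28 ± 0.18. Stk19 differed by 0.19 ± 0.09 with diabetes (adjusted p = 0.346), by 0.10 to 0.25 when 1 array was left out and by 0.13 ± 0.11 without replicates 9 and 10. It read 5.75, 5.55, 5.63 and 5.29 in Apoe null replicates 1 to 4 and 5.84, 5.78, 5.70 and 5.67 in Apoe/RAGE null replicates 9 to 12. Diabetic Apoe null replicate 1 lay among the Apoe/RAGE null values. Over the 15 arrays, Nelfe, a subunit of the negative elongation factor, ranged from 6.92 to 7.31, and Dxo, which removes faulty caps from messenger RNA, from 6.11 to 6.51. Skiv2l, a helicase that feeds RNA to the exosome, ranged from 4.97 to 5.53, Pbx2, a homeobox gene that lies just before Ager, from 6.33 to 6.94, and Prrc2a, an RNA-binding protein, from 6.24 to 6.78. Lsm2, of the U6 small nuclear ribonucleoprotein, ranged from 3.67 to 4.44, Msh5, a meiotic MutS homologue, from 4.37 to 4.95, and Gpank1, with a G-patch domain, from 6.14 to 6.60.

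The 8 immune and cytokine genes were set apart by 1 array, diabetic Apoe/RAGE null replicate 10, and the members described here were picked after that was seen. Ltb, which anchors lymphotoxin at the surface of lymphocytes, read 3.04, 6.45, 3.28 and 2.90 in diabetic Apoe/RAGE null replicates 9 to 12 and 2.80 to 4.04 on the 11 arrays of the other groups. Aif1, the macrophage protein also called Iba1, read 3.38, 6.63, 4.10 and 3.65 there and 3.42 to 4.42 elsewhere. Gpsm3, a regulator of G protein signalling in leukocytes, read 5.49, 6.89, 5.78 and 5.47 there and 5.27 to 5.70 elsewhere. In each case replicate 10 was the highest array and the other 3 of its group lay near the rest.

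Lst1, a leukocyte-specific transcript, read 5.34, 6.65, 5.87 and 5.30 in the same group and 5.17 to 6.06 elsewhere, and Lta, lymphotoxin alpha, 2.30, 3.45, 2.64 and 2.83, with 2.58 to 2.97 elsewhere. Nfkbil1, a protein related to the inhibitors of NF-kB, read 4.06, 4.13, 3.68 and 3.70 and was also high in replicate 9. By contrast, Tnf, the tumour necrosis factor gene between Ltb and Lta, read 4.32 in replicate 10 within 4.03 to 4.61 on all arrays. Ly6g6c, a Ly6 family surface protein, read 4.29, within 4.02 to 4.78. The mean over the 8 genes of level minus the gene's mean was 1.12 in replicate 10 and -0.24 to 0.16 on the other 14 arrays.

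Leukocyte markers moved with these genes. In replicate 10 the score of 5 of 6 B cell markers measured was 3.28, against -1.0 to 1.13 on the other arrays. That of 6 of 7 T and NK cell markers was 2.64 (-0.42 to 0.32 elsewhere), that of 5 of 6 neutrophil markers 1.11 (-0.72 to 0.56), and that of all 10 macrophage markers 0.86 (-0.49 to 0.52). Ms4a1, the B cell antigen CD20, read 8.51 there and 2.80 to 6.23 elsewhere, and Cd3g, of the T cell receptor complex, read 7.34 and 2.32 to 3.66. Their part in the values of the class III genes was not tested.

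**Figure D4:**
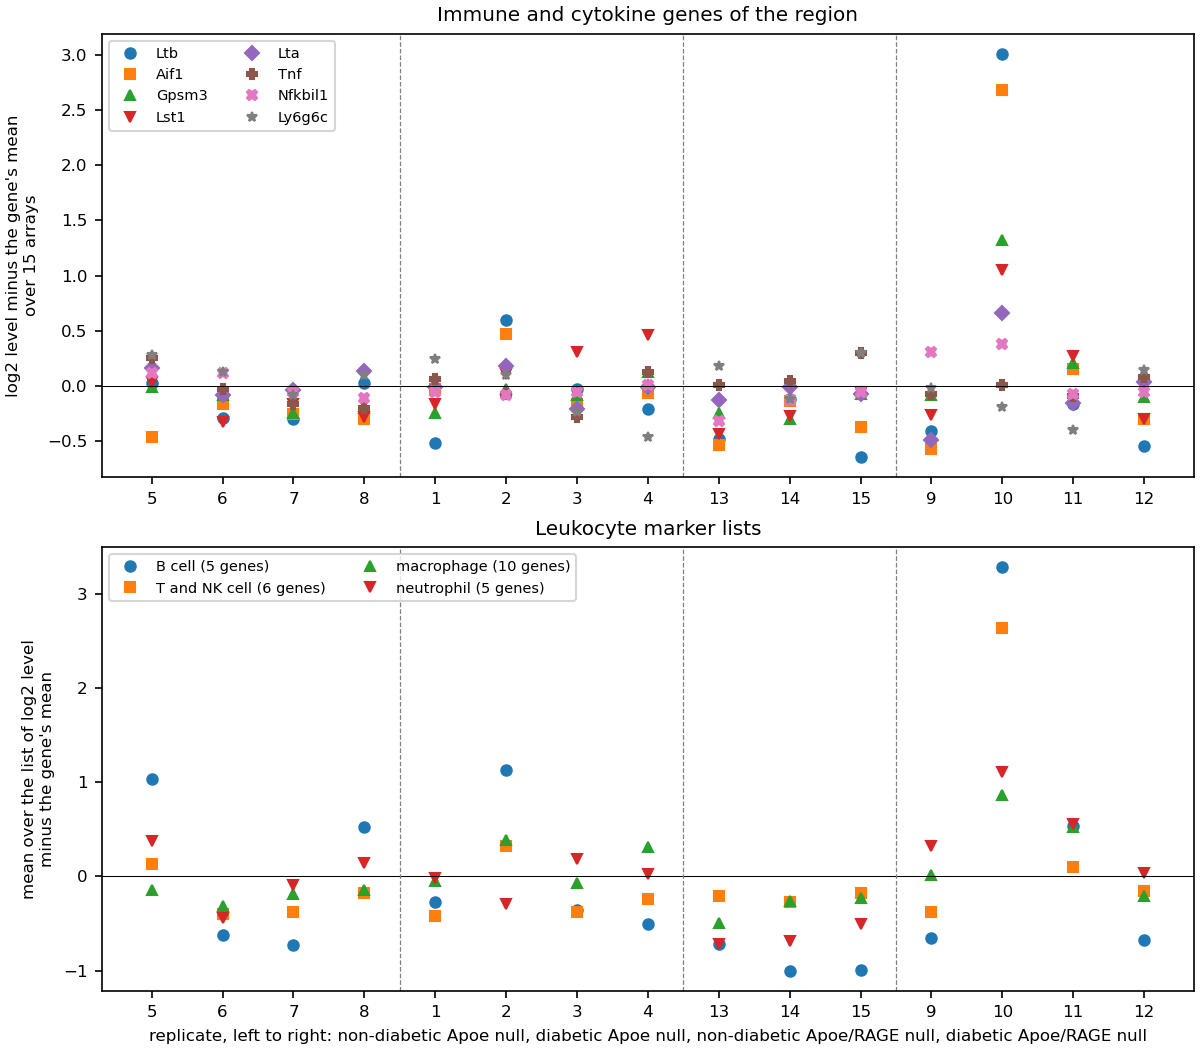
Top, log2 level of the 8 immune and cytokine genes of the class III region on each array, minus the gene's mean over the 15 arrays; bottom, the mean of the same quantity over 4 lists of leukocyte markers, with arrays ordered by group and labelled by replicate. In replicate 10 the class III immune genes average 1.12 and the B cell list 3.28, while Tnf and Ly6g6c stay near zero.

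Differences that use the diabetic Apoe/RAGE null group rest on that array for these genes. Against diabetic Apoe null aorta, Ltb differed by 0.51 ± 0.57, by -0.34 ± 0.21 without replicate 10 and by -0.32 ± 0.25 without replicates 9 and 10. Aif1 went from 0.44 ± 0.49 to -0.29 ± 0.17 without replicate 10, and Gpsm3 from 0.39 ± 0.23 to 0.06 ± 0.11. For diabetes in Apoe/RAGE null aorta, Ltb went from 0.89 ± 0.62 to 0.04 ± 0.23, Aif1 from 0.84 ± 0.53 to 0.11 ± 0.18 and Gpsm3 from 0.54 ± 0.25 to 0.21 ± 0.12. None of these passed limma's test with or without the array (adjusted p between 0.463 and 0.999). With diabetes 7 of the 8 immune genes were higher in Apoe/RAGE null aorta as labelled and 2 of 8 without replicates 9 and 10, while 2 of 8 were higher without diabetes.

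Nfkbil1 gave the smallest p of any member for diabetes in Apoe/RAGE null aorta and for the interaction. Replicates 13 to 15 read 3.43, 3.62 and 3.70, and Apoe null aorta read 3.87, 3.87, 3.70 and 3.64 without and 3.70, 3.67, 3.70 and 3.76 with diabetes. The diabetic Apoe/RAGE null replicates other than 9 and 10 lay at the top of the non-diabetic group. The difference with diabetes was 0.31 ± 0.12 in Apoe/RAGE null aorta (limma adjusted p = 0.674) and 0.11 ± 0.10 without replicates 9 and 10. The interaction was 0.37 ± 0.16 (adjusted p = 0.675), and 0.17 ± 0.13 without the pair. The genotype difference was -0.18 ± 0.12 without diabetes (adjusted p = 1) and 0.18 ± 0.11 with diabetes (adjusted p = 0.452), and the latter was -0.02 ± 0.10 without replicates 9 and 10.

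In Apoe null aorta, where replicate 10 plays no part in the group means, Lst1 was 5.64, 5.28, 5.44 and 5.32 without and 5.44, 5.71, 5.91 and 6.06 with diabetes. Diabetic replicate 1 overlapped the non-diabetic group. The difference was 0.36 ± 0.24 (95% interval -0.15 to 0.87, limma adjusted p = 0.617). Aif1 was 3.49, 3.79, 3.70 and 3.65 without and 3.92, 4.42, 3.79 and 3.89 with diabetes. Non-diabetic replicate 6 and diabetic replicate 3 were level to the second decimal, and the groups otherwise lay apart. The difference was 0.35 ± 0.49 (adjusted p = 0.855). The fit takes its spread from all 4 groups, and without replicate 10 the differences were 0.36 ± 0.15 for Lst1 (unadjusted p = 0.0335, limma adjusted p = 0.384) and 0.35 ± 0.16 for Aif1 (unadjusted p = 0.0488, adjusted p = 0.426). Macrophage scores were -0.31 to -0.14 in the non-diabetic and -0.07 to 0.39 in the diabetic arrays; their part in the Aif1 and Lst1 values was not tested.

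The 250 bases before the start of 3 of these genes are shown because the genes were high together in replicate 10, with any match to the NF-kB motif in capitals. They are RefSeq promoter sequences (GRCm38.p6), each 5′ to 3′ on the gene's own strand: Ltb at chr17:35194257-35194506 on the plus strand, Aif1 at chr17:35176053-35176302 on the minus strand and Gpsm3 at chr17:34589556-34589805 on the plus strand.
Ltb: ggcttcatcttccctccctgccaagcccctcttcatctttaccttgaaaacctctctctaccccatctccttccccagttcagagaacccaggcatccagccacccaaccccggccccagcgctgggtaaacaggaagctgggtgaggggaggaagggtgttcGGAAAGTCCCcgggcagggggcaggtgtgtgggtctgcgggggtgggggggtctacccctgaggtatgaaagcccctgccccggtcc
Aif1: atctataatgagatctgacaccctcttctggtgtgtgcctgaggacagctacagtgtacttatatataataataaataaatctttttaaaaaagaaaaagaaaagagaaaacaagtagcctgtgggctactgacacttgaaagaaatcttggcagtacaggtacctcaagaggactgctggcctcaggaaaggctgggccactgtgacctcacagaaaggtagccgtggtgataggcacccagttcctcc
Gpsm3: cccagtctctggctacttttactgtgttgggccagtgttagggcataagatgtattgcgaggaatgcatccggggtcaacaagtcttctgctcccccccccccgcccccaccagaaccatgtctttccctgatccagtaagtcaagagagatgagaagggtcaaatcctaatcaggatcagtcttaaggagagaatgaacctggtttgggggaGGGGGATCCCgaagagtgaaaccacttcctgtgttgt
Ltb held 1 match, 87 bases before the start, Gpsm3 held 1 stretch that matched on both strands, 37 bases before the start, and Aif1 held none.

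Promoters of 33 of the 40 listed genes, from 250 bases before to 50 after the start, were found in the table. Searched on both strands, the NF-kB motif was found in 7 of the 33 (Apom, Clic1, Gpsm3, Ltb, Neu1, Notch4 and Prrc2a), and in 8.18% of all 27025 promoters of that length. The PU.1 motif GAGGAAGT was in 1 (Lsm2; 3.28% of all promoters), TATAAA in 3 (Lta, Ly6g6c and Tnf; 14.2%) and the heat shock element in 0 (0.529%). The NF-kB matches were spread over several roles, and a match is a description of the letters only. The members' promoters held a median of 13 CpG dinucleotides, against 7.0 over all promoters, and 58.3% G or C, against 52.7%. By role the median CpG count ran from 27.0 for the 7 RNA, chromatin and DNA genes to 5.5 for the 2 genes of cell surface receptors and epidermal growth factor domains (Notch4 and Egfl8), and was 7.0 for the 7 immune genes, of which Aif1 had 1.

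Other genes of the wider complex were read from 3 lists beside the members. Of 18 other class III genes 11 were measured, and Hspa1a and Hspa1b were the 2 called, both lower with RAGE deletion in diabetic aorta (2 of 11, against 0.313% of all genes), where 5 of the 11 were higher and 6 lower. With replicates 9 and 10 left out, Hspa1b was called, and the losses of both calls are given above. Of 32 class II segment genes 29 were measured: 8 were higher and 21 lower in non-diabetic Apoe/RAGE null aorta (median -0.14; 50.6% of all genes were higher), and 26 higher and 3 lower with diabetes (median 0.14; 49.4% of all genes higher), with 0 called in either. Some leukocyte markers moved with the non-diabetic split. The B cell score was -1.0 to -0.72 in Apoe/RAGE null and -0.73 to 1.03 in Apoe null aorta. In the same order the neutrophil score was -0.72 to -0.51 and -0.44 to 0.38. The macrophage score was -0.49 to -0.23 and -0.31 to -0.14. The T and NK cell score did not move, at -0.27 to -0.18 and -0.4 to 0.13, with means of -0.22 and -0.21. The part of these lists in the class II values was not tested. The diabetic class II split was 14 and 15 without replicates 9 and 10. The class II score was 0.92 in replicate 10 and -0.24 to 0.20 on the other arrays. Of 26 genes on the class I side 20 were measured, with 8 higher and 12 lower without and 12 higher and 8 lower with diabetes (8 and 12 without replicates 9 and 10), and 0 called. The 39 members split 15 higher to 24 lower and 24 higher to 15 lower in the same comparisons.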

How the data were processed

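Per the labels and the submitters' processing notes, RNA from 15 aortas was hybridized to 15 arrays, and the authors deposited log2 probe set values made with RMA, version not stated. RMA shrinks differences between dim probe sets, and whether it was run on all arrays together is not given in the sources used here. Of 45101 probe sets, 64 controls were left out and 45037 tested. By the array annotation 34945 named 1 gene, 932 several and 9160 none. Gene names were matched to RefSeq (GRCm38.p6). The number of arrays limits the precision.

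The deposited log2 values were fitted with limma 3.58.1 in R 4.3.3: 4 group means, all 15 arrays, empirical Bayes, Benjamini-Hochberg adjustment over all probe sets, calls at an adjusted p under 0.05. P-values measure the spread between mice as labelled. Members were described singly where called, where genotypes did not overlap, or where among the 6 smallest p; the others by range. The members and lists were chosen with earlier results of these data known. Alternatives covered thresholds, normalization, array weights, dim or shared probe sets, probe set choice and left-out arrays. The fit was tested on simulated data. Figures used matplotlib 3.10.9 in Python 3.11.15.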

Additional observations from a re-analysis of the deposited data

Results flagged for a closer look

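A test of the gap between 1 array and the rest of its group was run over 117 groups of 4 arrays, and 6 arrays stood apart, where chance gives about 1 in 20 (5.85). In diabetic Apoe/RAGE null aorta these were Ltb in replicate 10 at 6.45 (next highest 3.28), Fkbpl in replicate 10 at 4.66 (next 4.81) and Lsm2 in replicate 9 at 3.67 (next 4.14). In diabetic Apoe null aorta they were Dxo in replicate 4 at 6.38 (next 6.25), Lsm2 in replicate 4 at 3.90 (next 4.19) and Ddx39b in replicate 3 at 9.77 (next 9.57). Nfkbil1 differed with diabetes by -0.06 in Apoe null and by 0.31 in Apoe/RAGE null aorta; its limma interaction was 0.37, with an unadjusted p of 0.0336 and an adjusted p of 0.675.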

How the results depend on the processing

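No paired analysis was possible because the replicate numbers, 1 to 15, are unique to 1 array each and the groups share none. No member was called under 159 of 160 alternatives for the count of members called. The exception was genotype over both states without replicates 9 and 10, where 1, Rnf5, was called (0.57, against 0.33 with all arrays). Rnf5 was among the genes that set that pair apart. Leaving out any 1 array gave 0 members in all 6 comparisons. Of 664 alternatives over 26 results for named members, 662 kept direction and side of the threshold. Those results were picked from these data and none was called with all arrays, so the count does not support them. Besides Rnf5, Nfkbil1 with diabetes reversed, from 0.18 to -0.02 without replicates 9 and 10. The members' median moved from 0.03 to 0.0 (median centring) and -0.01 (without replicates 9 and 10) for RAGE deletion with diabetes, to -0.02 without that pair for genotype over both states, to 0.06 without it for the interaction, and for diabetes in Apoe/RAGE null aorta to -0.02 (quantile normalization) and -0.03 (probe set with the highest SD). With 1 array left out the medians spanned -0.04 to 0.01 and 0.02 to 0.06 for RAGE deletion without and with diabetes, -0.02 to 0.01 over both states, -0.06 to -0.02 and -0.05 to 0.02 for diabetes in Apoe null and Apoe/RAGE null aorta, and 0.01 to 0.06 for the interaction; the causes were not tested.

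Counts over all probe sets depended on the setting. For RAGE deletion without diabetes (0) they were 5 with only the compared groups fitted and 9 without replicates 9 and 10. For RAGE deletion with diabetes (110) they were 321 at B above 0, 0 with only the compared groups, 253 without dim probe sets, 53 with array weights, 72 with 1 probe set per gene and 22 without replicates 9 and 10, and 0 to 931 with 1 array left out. For genotype over both states (1) they were 87 at B above 0, 2 without dim probe sets, 2 with trend and robust fitting, 90 with array weights, 0 with 1 probe set per gene, 2 without shared-probe sets, 48 without replicates 9 and 10, and 0 to 18 with 1 array left out. For diabetes in Apoe null aorta (0) they were 76 at B above 0, 5 with only the compared groups, 7 with array weights, and 1 each without dim probe sets, with quantile normalization, with 1 probe set per gene and without shared-probe sets, and 0 to 3 with 1 array left out. For diabetes in Apoe/RAGE null aorta (0) they were 4 at B above 0, 12 with only the compared groups and 0 to 49 with 1 array left out. The mean level of 10 members lay below the median of all probe set means, and with 3 or 4 arrays a group the 95% interval reached beyond 0.5 for 11 members without and 12 with diabetes.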
